A study of Homo sapiens with 12 samples.

Results

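The 10 genes described here encode the core of the human miRNA machinery: DROSHA, DGCR8, XPO5, DICER1, TARBP2, the Argonautes AGO1, AGO2, AGO3 and AGO4, and TNRC6A. They were chosen by name, as 10 of 54261 rows of a table of total RNA counts, and 9 of the 10 passed the filter on low counts. The cells were HCT116, a human colorectal carcinoma line, and HCT116oxR, a line grown out of it under oxaliplatin, a platinum drug that forms DNA adducts, from 0.1 µmol/L in steps up to 5 µmol/L, with a period of 1 year given for the last dose. Each line gave 3 total RNA and 3 small RNA libraries, from cultures described as grown and harvested separately, and the parental cultures carry no drug label. All cultures of HCT116oxR come from 1 resistant line, and a p-value here speaks of culture-to-culture spread within that line and its parent, not of independently derived lines.

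In the canonical pathway a primary transcript is cropped in the nucleus by the Microprocessor, made of the RNase III enzyme DROSHA and its RNA-binding partner DGCR8. The hairpin is carried to the cytoplasm by exportin-5 (XPO5) and cut by the RNase III enzyme DICER1 with its partner TARBP2. A strand of the resulting duplex is then loaded into an Argonaute protein, which recruits the scaffold TNRC6A and through it the deadenylases that shorten target mRNAs. AGO2 is the Argonaute best known for slicing a fully paired target.

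Total counts were 11950069 to 13558077 per total RNA library and 16089595 to 18147051 per small RNA library. Epithelial markers (EPCAM, CDH1, keratins, claudins and VIL1) summed to 3240 to 3341 CPM in parental and 3925 to 4002 CPM in HCT116oxR libraries, although VIL1 was near 0. Of 6 leukocyte markers PTPRC, CD3E and TYROBP had 0 counts, and the sums were 10.2 to 13.2 CPM in parental and 5.30 to 6.71 CPM in HCT116oxR libraries. Endothelial markers summed to 1.66 to 2.43 and 3.01 to 3.98 CPM, and fibroblast markers to 55.2 to 68.3 and 46.6 to 51.7 CPM. Most of the leukocyte sum was CD68 (means 11.8 and 5.57 CPM), and most of the fibroblast sum was COL1A1 (53.5 and 43.3 CPM). The fibroblast markers COL3A1, DCN, LUM and PDGFRB had means of 0.732 CPM or less in each line. The part of these markers in the results was not tested. A CPM value, the count scaled to its library's total with TMM, is a share of that library, so a change in RNA per cell cannot be told apart from a change of the other transcripts.

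Of the 9 members tested, 5 were higher in HCT116oxR (AGO1, AGO2, AGO3, AGO4 and DICER1), 1 was lower (XPO5) and 3 did not pass (DROSHA, DGCR8 and TARBP2). Every change was smaller than 2-fold. The threshold was an adjusted p of 0.05 in edgeR's quasi-likelihood test, which 44.1% of 17511 tested genes passed, 22.3% higher and 21.8% lower. Of the 12620 tested protein-coding genes with a position, 25.5% were higher and 24.6% lower. The libraries of the lines did not overlap for 6 of the 9 members, against 50.5% of all tested genes (HCT116oxR above for 5 members and 25.7% of genes, below for 1 member and 24.8% of genes). The median log2 fold change of the members was 0.13, with -0.00057 over all genes, and their median size without sign was 0.14, with 0.27 over all genes. The latter value includes many genes of few counts, and genes of a level like that of the members were not compared.

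**Figure D1:**
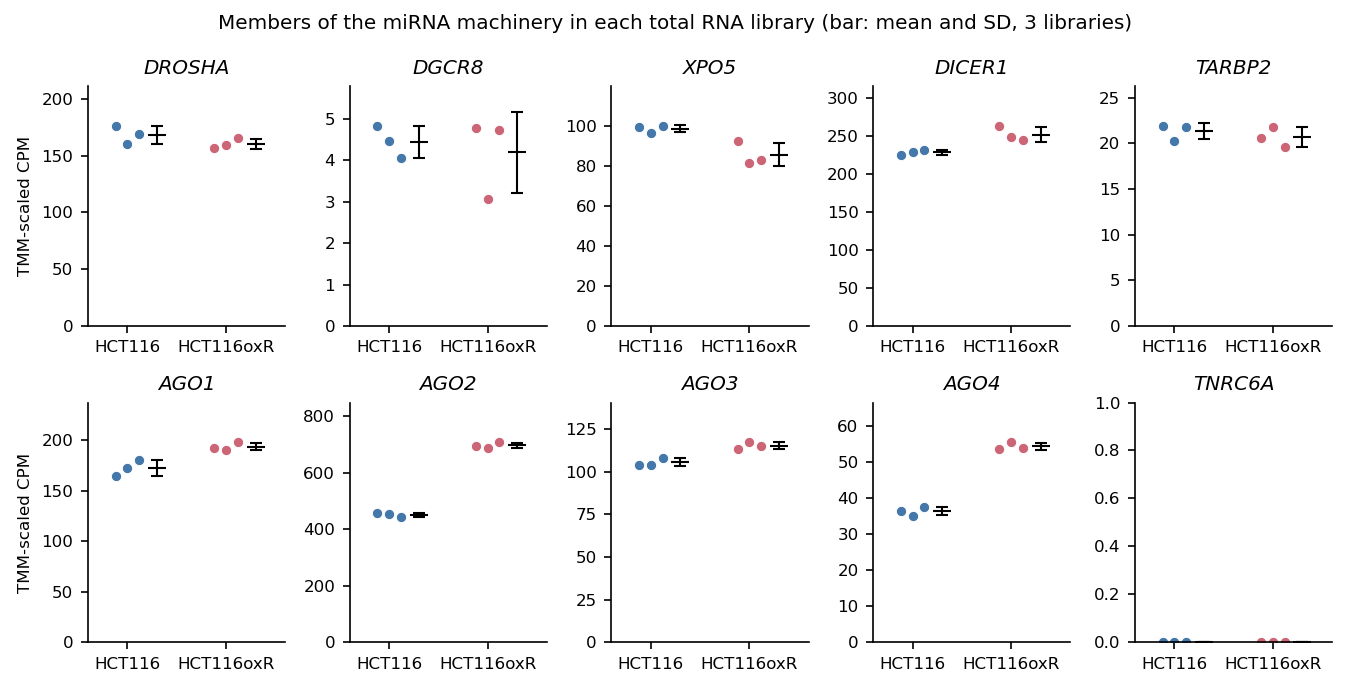
Level of each member in TMM-scaled CPM (vertical axis, from 0) in the 3 HCT116 and 3 HCT116oxR libraries (points), with mean and SD (bars). The 4 Argonaute genes and DICER1 lie higher in every HCT116oxR library, XPO5 lies lower, and TNRC6A is at 0.

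The nuclear cropping step came first. DROSHA (chr5:31400494-31532093, GRCh38) stood at 176, 160 and 169 CPM in the parental libraries and at 157, 159 and 165 CPM in HCT116oxR. The lines overlapped, and the log2 fold change of -0.07 ± 0.04 (SE, n = 3 per line) did not pass (adjusted p = 0.211). Its 95% interval ran from -0.15 to 0.02, or from 0.899-fold to 1.01-fold.

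DGCR8 (chr22:20080241-20111872) rested on few counts, with 64, 53 and 50 in the parental and 65, 41 and 58 in the HCT116oxR libraries. In CPM these were 4.83, 4.46 and 4.05 against 4.79, 3.06 and 4.73, and the lines overlapped. The log2 fold change was -0.09 ± 0.23 (adjusted p = 0.798), with a 95% interval from -0.55 to 0.38, or 0.683-fold to 1.30-fold. Changes of either sign within that range remain compatible with these few counts. The hairpins MIR3618 (chr22:20085746-20085833) and MIR1306 (chr22:20086058-20086142) lie inside DGCR8 and had rows of their own in total RNA. MIR1306, at 195 parental and 257 HCT116oxR counts, held more counts than the whole DGCR8 row (167 and 164). How reads were divided between these rows is not given in the sources used here. With both hairpin rows added to DGCR8, an alternative chosen after seeing the data, the log2 fold change was 0.15 ± 0.14 (adjusted p = 0.412), opposite in sign and also not past the threshold.

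XPO5 (chr6:43522334-43576038), the exporter of hairpins, was the only one of the 9 tested members that fell. It stood at 99.1, 96.5 and 99.8 CPM in parental and at 92.2, 81.4 and 82.9 CPM in HCT116oxR libraries. Every HCT116oxR library lay below every parental one, with replicate 1 nearest to the parental values. The fall was 13.2% (log2 fold change -0.20 ± 0.06, adjusted p = 0.00127). POLR1C, an RNA polymerase subunit gene, overlaps XPO5 over 40074 bases in the annotation, so reads of the overlap are uncertain without stated strand.

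XPO5 fell, and DROSHA, the other nuclear-step gene with many counts, did not pass. These changes were not tested against each other. The 250 bases before the annotated start of each are shown from RefSeq (GRCh38.p14, minus strand of the chromosome, 5′ to 3′). Capitals mark matches on either strand to the letters GGGCGG, named the GC box, to the pentamer CCAAT, to the TATA box letters TATAAA, to the AP-1-like letters TGANTCA, or to the E-box letters CACGTG, and matches may overlap. The XPO5 window is chr6:43576039-43576288 and the DROSHA window is chr5:31532094-31532343.
XPO5: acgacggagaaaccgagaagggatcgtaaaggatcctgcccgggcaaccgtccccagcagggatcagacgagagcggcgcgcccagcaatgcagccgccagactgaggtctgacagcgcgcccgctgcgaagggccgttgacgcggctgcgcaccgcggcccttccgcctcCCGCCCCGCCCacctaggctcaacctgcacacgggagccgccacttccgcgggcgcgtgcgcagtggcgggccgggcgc
DROSHA: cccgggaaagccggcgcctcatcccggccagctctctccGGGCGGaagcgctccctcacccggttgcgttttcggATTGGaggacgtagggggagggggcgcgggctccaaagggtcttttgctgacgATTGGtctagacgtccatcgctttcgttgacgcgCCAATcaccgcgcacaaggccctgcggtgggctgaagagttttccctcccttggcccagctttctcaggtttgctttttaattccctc
The XPO5 window held 2 GC boxes and no CCAAT box, and 72.4% of its bases were G or C. The DROSHA window held 1 GC box and 3 CCAAT boxes, and 62.0% of its bases were G or C. Among 35116 listed promoters of the same length, 42.6% held a GC box and 32.0% a CCAAT box, with a median of 58.0% G or C. Of the remaining letters, TATAAA was held by 10.7%, TGANTCA by 6.57% and CACGTG by 6.34%, and neither window matched them. The window of AGO3, which rose, also held 2 GC boxes and no CCAAT box, with 80.0% G or C. Those of AGO1 and AGO4, which rose too, held 2 GC boxes with 1 CCAAT box, and neither. The listed windows of AGO3 (chr1:35930855-35931104), AGO4 (chr1:35807766-35808015) and AGO1 (chr1:35882959-35883208) lie inside the spans of these genes. They do not precede the start of the span, unlike those of XPO5 and DROSHA, and AGO2 had no listed window. That of DGCR8, which did not pass, held 2 GC boxes and 4 CCAAT boxes. These matches are letters in a window and not measured binding, and their part in any change was not tested.

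In the cytoplasm, DICER1 (chr14:95086228-95158010) stood at 225, 229 and 231 CPM in parental and 263, 248 and 244 CPM in HCT116oxR libraries. The lines did not overlap, and DICER1 rose by 10.2% (log2 fold change 0.14 ± 0.04, adjusted p = 0.00130). DICER1-AS1 overlaps it by 323 bases and had 10 to 52 counts per library. TARBP2 (chr12:53500923-53506431), the double-stranded RNA-binding partner, stood at 21.9, 20.3 and 21.8 against 20.6, 21.8 and 19.6 CPM. The lines overlapped, and the log2 fold change of -0.05 ± 0.11 did not pass (adjusted p = 0.773, 95% interval -0.26 to 0.17). MAP3K12, which overlaps TARBP2 by 617 bases, had 169 to 203 parental and 436 to 493 HCT116oxR counts.

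The Argonaute genes all rose. AGO2 (chr8:140520156-140642313) stood at 457, 454 and 443 CPM in parental and at 696, 687 and 707 CPM in HCT116oxR libraries. The lines lay far apart beside the spread within each, and AGO2 rose by 54.4% (log2 fold change 0.63 ± 0.03, adjusted p = 4.25e-39). AGO4 (chr1:35807636-35857890) stood at 36.5, 35.1 and 37.4 against 53.6, 55.4 and 53.9 CPM. It rose by 49.5% (0.58 ± 0.08, adjusted p = 4.18e-11), and its lines did not overlap either.

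AGO1 and AGO3 moved less. AGO1 (chr1:35869761-35930532) stood at 165, 173 and 181 CPM in parental and 193, 191 and 198 CPM in HCT116oxR libraries, a rise of 12.1% (0.16 ± 0.04, adjusted p = 5.35e-04). AGO3 (chr1:35930718-36072500) stood at 104, 104 and 108 against 113, 117 and 115 CPM, a rise of 9.08% (0.13 ± 0.05, adjusted p = 0.0346). The lines did not overlap for either gene. The call of AGO3 was lost without the filter (adjusted p = 0.0649) and when single libraries were left out: parental replicate 1 (0.111), parental replicate 2 (0.0963), HCT116oxR replicate 2 (0.0896) or HCT116oxR replicate 3 (0.0759). Its direction held in each of these and under each scaling tried, as did those of AGO1, AGO2 and AGO4.

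**Figure D2:**
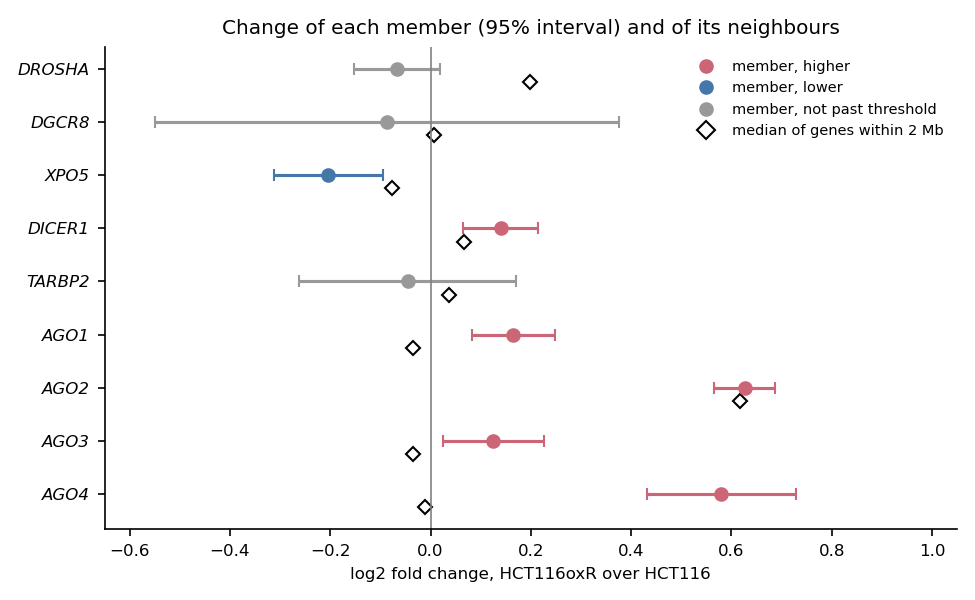
Log2 fold change of HCT116oxR over HCT116 (horizontal axis) for the 9 tested members, with 95% interval (circles), beside the median of the tested protein-coding genes within 2 Mb (diamonds). The neighbour median is 0.62 for AGO2, which is the value of a row that overlaps AGO2 and is 0.56 without it, and -0.01 for AGO4.

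Since AGO2 rose more than AGO1 and AGO3, the make-up of the Argonaute counts differed. The 4 genes together had 10104, 9104 and 9509 counts in parental and 14306, 14075 and 13184 in HCT116oxR libraries. AGO2 held 59.9%, 59.2% and 57.6% of them in parental and 65.95%, 65.4% and 65.9% in HCT116oxR libraries. Its mean share was 6.82 percentage points higher in HCT116oxR, and the libraries did not overlap. The share follows from the changes given above and is no separate evidence, and an exact permutation test over libraries, 2-sided, cannot go below its p of 0.1 with 3 against 3. AGO1 held 22.6% ± 0.94 of the Argonaute counts in parental and 18.3% ± 0.10 in HCT116oxR libraries (mean ± SD, n = 3 each), and AGO3 held 13.8% ± 0.21 and 10.9% ± 0.23. AGO4 held 4.74% ± 0.14 and 5.13% ± 0.13. These are shares of counts, not of molecules, because longer transcripts give more counts and no transcript length was used here. Levels of different members are for the same reason not ranked against each other.

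AGO2 lies on the long arm of chromosome 8, where many genes were higher in HCT116oxR. Of 9 tested protein-coding genes whose start lay within 2 Mb of that of AGO2, 8 rose and 0 fell, with a median log2 fold change of 0.62 and a range from 0.16 to 2.29. Over all 12620 tested protein-coding genes with a position, 25.5% rose and 24.6% fell, with a median of -0.00063. On chromosome 8 as a whole 52.9% of 429 genes rose, with a median of 0.30. CHRAC1, a chromatin accessibility complex gene that starts 8.83 kb away, rose less than AGO2 (0.19 ± 0.07). LOC107986982, the next called neighbour, overlaps AGO2 over 16342 bases and rose by 0.62 ± 0.11, and which of the pair a read in the overlap came from is not known here. This row was itself the middle value of the 9 neighbours. Without it the other 8 genes had a median of 0.56, 7 rose and 0 fell, a count made after seeing the data, and the 82 genes within 5 Mb had a median of 0.45. The part of the neighbourhood in the change of AGO2 was not tested.

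AGO4, AGO1 and AGO3 lie in that order on the short arm of chromosome 1 within 265.0 kb, with 11870 bases between AGO4 and AGO1 and 185 bases between AGO1 and AGO3. Their neighbours did not share their direction. Of 35 protein-coding genes within 2 Mb of AGO4, 5 rose and 6 fell, with a median of -0.01. Of 38 within 2 Mb of AGO1, 5 rose and 8 fell (median -0.04). The nearest called neighbours, the proteasome subunit gene PSMB2 (-0.13 ± 0.04) and the neurochondrin gene NCDN (-0.35 ± 0.08), both fell, with overlapping libraries for PSMB2.

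DICER1 and XPO5 had the sign of their neighbour medians, and DROSHA, which did not pass, had the opposite sign. Within 2 Mb of DICER1, 7 of 23 genes rose and 4 fell (median 0.07, range -0.69 to 1.59). The nearest called neighbours CLMN (0.47 ± 0.05) and SERPINA5 (1.59 ± 0.25) rose. Around XPO5, 10 of 56 rose and 15 fell (median -0.08, range -1.28 to 2.87). There TJAP1, a tight junction gene 44.8 kb away, fell by 0.51 ± 0.07 on the log2 scale, and POLH, the gene of translesion polymerase eta, rose by 0.18 ± 0.05. Around DROSHA 5 of 6 genes rose (median 0.20), whereas DROSHA itself stood at -0.07. The neighbour medians of DGCR8 (0.01) and TARBP2 (0.04), which did not pass either, lay near 0. For comparison, 25.5% of all 12620 tested protein-coding genes with a position rose and 24.6% fell. On chromosome 14, which holds DICER1, 36.6% rose (median 0.09). The ranges around DICER1 and XPO5 both span 0, and the part of these neighbours in the changes was not tested.

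**Figure D3:**
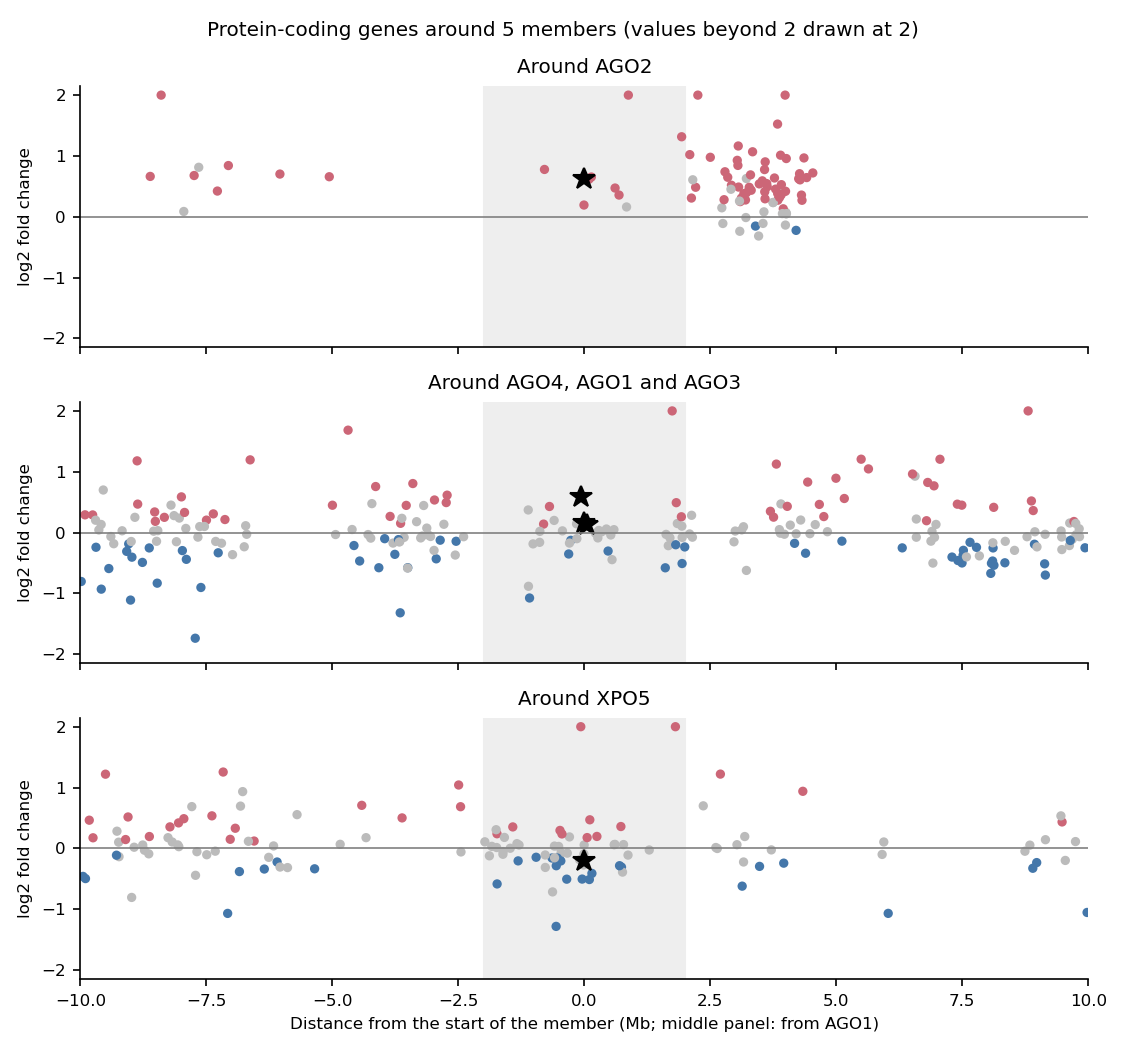
Log2 fold change of tested protein-coding genes (points; red higher, blue lower, grey not past the threshold) by distance in Mb from the start of AGO2, AGO1 or XPO5, with members as stars and the 2 Mb range shaded. Genes around AGO2 lie mostly above 0, and those around the Argonaute row on chromosome 1 and around XPO5 lie on both sides.

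TNRC6A (chr16:24610205-24826218), the scaffold that links Argonaute to deadenylases, had 0 counts in each of the 6 libraries, which allows up to 3 counts or 0.221 to 0.252 CPM per library. That limit covers counting error only. How reads were assigned to genes is not given in the sources used here. The 0 can therefore not be read as absence of TNRC6A RNA, and no fold can be given. Its paralog TNRC6B was also low, at 18, 9 and 20 counts in HCT116 against 32, 19 and 22 in HCT116oxR. Its log2 fold change was 0.57 ± 0.40 (adjusted p = 0.259). The third paralog, TNRC6C, rose from 11.4 ± 0.71 to 16.6 ± 1.5 CPM (mean ± SD, n = 3 each; log2 fold change 0.54 ± 0.13, adjusted p = 3.17e-04). It overlaps TMC6 by 1439 bases, and TMC6 had more counts in HCT116oxR (1033 to 1321) than in parental libraries (640 to 678); the part of this overlap was not tested.

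The genes with the pattern most like that of AGO2, by Pearson's r of log2 CPM over the 6 libraries, were SLFN5, TMEM67 and SYT1, each with r above 0.99. TMEM67 also lies on chromosome 8. With 2 lines of 3 cultures such an r mostly reflects the difference between lines, and 367 of 12611 genes compared had an r above 0.99 with AGO2. For XPO5 the closest were PIGL (r = 0.995), NMRK1 (r = 0.995) and CDC23 (r = 0.994), among 5 genes above 0.99.

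The rest of the pathway was described by lists of 97 further genes, of which 92 were tested. In all 32 rose and 16 fell, 52.2% called beside the 44.1% of all genes, with a median log2 fold change of 0.06. Of the 12620 tested protein-coding genes with a position, the nearer background, 25.5% rose and 24.6% fell. The share called in the lists was thus close to that of protein-coding genes. Among 23 tested guide-loading chaperones and Argonaute regulators, 13 rose and 5 fell (78.3% called, median 0.15). Small changes pass more easily in genes of many counts. Genes of a level like that of the lists were not compared, so whether this share exceeds theirs was not tested. HSP90AA1, the inducible HSP90 chaperone that holds Argonaute open for loading, rose from 3392 ± 72.4 to 4546 ± 90.8 CPM (0.42 ± 0.02, adjusted p = 4.02e-34). AJUBA, a LIM-domain gene, rose by 0.50 ± 0.07. ZSWIM8, the ubiquitin ligase adaptor of target-directed miRNA decay, fell from 80.5 ± 2.16 to 55.5 ± 2.62 CPM (-0.53 ± 0.06, adjusted p = 6.00e-13). PPP6C, the phosphatase subunit that acts on Argonaute with ANKRD52, fell by 0.32 ± 0.06 on the log2 scale.

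Of 20 tested Microprocessor cofactors 8 rose and 3 fell (55.0% called, median 0.09). HNRNPA1, which binds the hairpin of miR-18a, rose by 0.43 ± 0.03 and ERH, a small partner of DGCR8, by 0.37 ± 0.06. The RNA helicase DDX17 fell by 0.24 ± 0.03 and TARDBP by 0.15 ± 0.04. LIN28A, which blocks let-7 maturation, was at 0 in all 3 parental libraries, while HCT116oxR libraries held 12, 8 and 6 counts. It did not pass the filter and was singled out after its values were seen, and LIN28B had 0 counts throughout.

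Among the 3 export and Dicer partner genes, RAN, the GTPase that drives export, rose by 0.24 ± 0.03 and PRKRA, the second double-stranded RNA-binding partner of DICER1, fell. PRKRA (chr2:178431414-178451175) stood at 122, 120 and 123 CPM in parental and at 75.1, 71.6 and 71.4 CPM in HCT116oxR libraries (-0.74 ± 0.05, adjusted p = 4.31e-25). Of 14 protein-coding genes within 2 Mb of PRKRA 12 fell and 1 rose, with a median log2 fold change of -1.21, a neighbourhood that was looked up after the value of PRKRA was seen.

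Of 34 tested silencing effectors 9 rose and 3 fell (35.3% called, median 0.04). DCP2, the catalytic decapping enzyme, rose from 152 ± 5.53 to 225 ± 3.84 CPM (0.57 ± 0.04, adjusted p = 4.05e-25). PABPC1, the cytoplasmic poly(A)-binding protein gene on chromosome 8, rose from 4.0 ± 0.91 to 9.82 ± 0.69 CPM (1.30 ± 0.19, adjusted p = 4.86e-09). PABPC1 has many near-identical pseudogene copies, so its low count is uncertain, and 13 of 14 protein-coding genes within 2 Mb of it rose as well (median 0.61). The decapping enhancers EDC3 (-0.35 ± 0.06) and PATL1 (-0.31 ± 0.05) fell.

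Of 10 tailing and decay genes 4 fell and 1 rose (median -0.16). The terminal uridylyltransferase ZCCHC6 (TUT7) fell by 0.27 ± 0.05 and the poly(A) polymerase PAPD7 (TENT4A) rose by 0.29 ± 0.05. ZC3H12A, an RNase gene with 182 parental and 127 HCT116oxR counts, stood at -0.58 ± 0.25 (adjusted p = 0.0454), a call lost under 7 of 11 alternatives, among them DESeq2 (-0.58) and the omission of any 1 parental library or of HCT116oxR replicate 1 (-0.35). In the PIWI clade, the germline relatives of the Argonautes, PIWIL1 and PIWIL3 had 0 counts, and 0 of the 2 tested genes passed in edgeR, by an unadjusted p or in DESeq2.

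**Figure D4:**
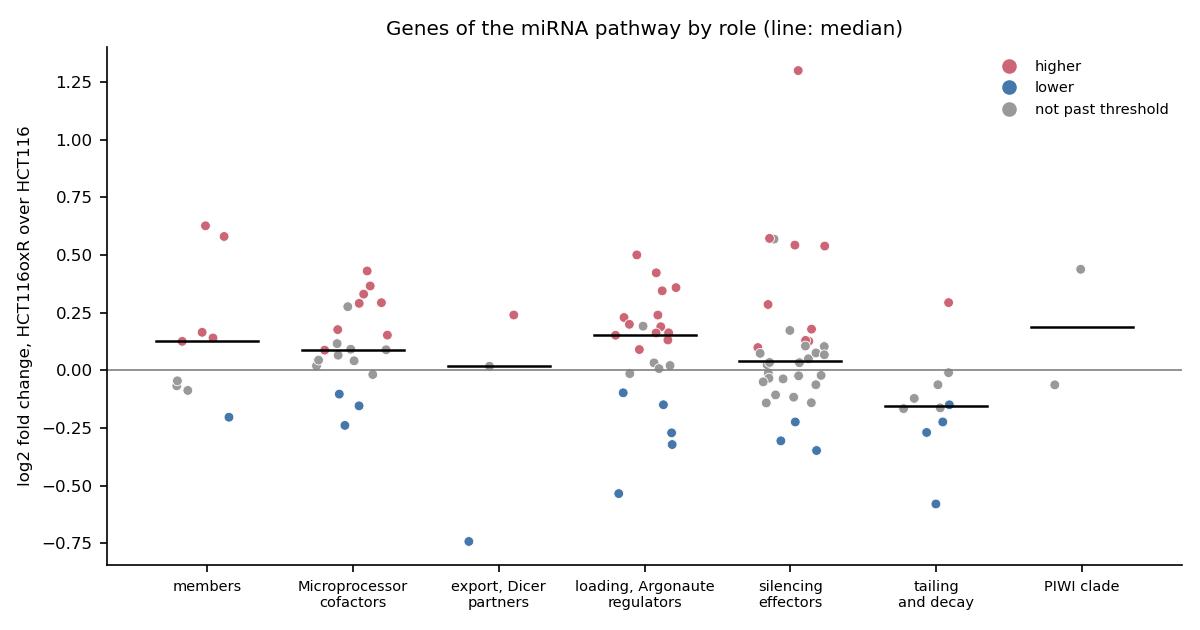
Log2 fold change of each tested gene (points; red higher, blue lower, grey not past the threshold) by role in the miRNA pathway, with list medians (lines). PABPC1 at 1.30 and PRKRA at -0.74 lie farthest from 0.

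The small RNA libraries showed the products of this machinery. Of 975 tested miRNAs 44.7% changed, 229 higher (23.5%) and 207 lower (21.2%). The libraries of the lines did not overlap for 55.2% of them, with HCT116oxR above for 28.5% and below for 26.7%. Groups tied to single members were taken from general knowledge: miRNAs made without DROSHA (mirtrons, which are cut out by splicing, and capped hairpins), those inside DGCR8, and those reported to target DICER1 (miR-103/107 and let-7). Their RefSeq sequences (GRCh38.p14, 5′ to 3′) are shown for the miRNAs the values turn on, with the seed, bases 2 to 8, in capitals. Of 31 listed miRNAs with a row, 29 had a sequence there.
hsa-miR-877-5p: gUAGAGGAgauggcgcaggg
hsa-miR-1224-5p: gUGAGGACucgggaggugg
hsa-miR-484: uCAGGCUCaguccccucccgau
hsa-miR-1306-5p: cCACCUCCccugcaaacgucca
hsa-miR-1306-3p: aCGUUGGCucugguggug
hsa-let-7i-5p: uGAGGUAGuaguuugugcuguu
hsa-let-7f-5p: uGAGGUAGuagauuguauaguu
hsa-let-7a-5p: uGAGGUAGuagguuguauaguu
hsa-let-7d-5p: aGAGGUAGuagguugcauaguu
hsa-let-7e-5p: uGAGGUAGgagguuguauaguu
hsa-miR-103a-3p: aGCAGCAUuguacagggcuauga
hsa-miR-107: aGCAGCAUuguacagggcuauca
The 5 let-7 miRNAs shown share the seed GAGGUAG, and miR-103a-3p and miR-107 share GCAGCAU. The let-7a and let-7f sequences differ at 1 of 22 bases, as do let-7a and let-7e, so reads may be shared between them.

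Of 8 tested miRNAs made without DROSHA 3 rose and 1 fell, where 23.5% of all 975 tested miRNAs rose and 21.2% fell. The mirtron miR-877-5p (chr6:30584332-30584351) stood at 65.8, 66.2 and 64.7 CPM in parental and 138, 132 and 121 CPM in HCT116oxR libraries, 1.99-fold higher (log2 fold change 0.99 ± 0.07, adjusted p = 4.29e-07). Its partner strand miR-877-3p rose by 0.65 ± 0.14. The mRNA row of ABCF1, the gene that holds the hairpin, stood at -0.23 ± 0.10 (adjusted p = 0.0506). The mirtron miR-1224-5p (chr3:184241405-184241423) rose from 9.97 ± 0.81 to 23.5 ± 1.08 CPM, 2.36-fold (adjusted p = 3.92e-06), and its host gene VWA5B2 rose too (0.88 ± 0.14). Other mirtron products did not pass: miR-1226-5p stood at 0.04 ± 0.47, miR-1226-3p at -0.11 ± 0.25 and miR-1229-3p at -0.44 ± 0.31. Their host genes DHX30 (-0.17 ± 0.04) and MGAT4B (-0.38 ± 0.08) fell.

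Neither capped hairpin product rose. The product miR-320a fell from 3238 ± 43.8 to 2659 ± 175 CPM (-0.28 ± 0.05, adjusted p = 9.54e-04). For miR-484 (chr16:15643301-15643322) the levels were 416 ± 14.4 and 433 ± 7.72 CPM (0.06 ± 0.05, adjusted p = 0.412). In all, miRNAs of this list held 0.357% to 0.375% of counts in parental and 0.320% to 0.339% in HCT116oxR libraries. The slicer-dependent miR-451a, which AGO2 makes without DICER1, did not pass the filter, with 0.229 ± 0.09 and 1.13 ± 0.95 CPM.

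Of the hairpins inside DGCR8, miR-3618 had 6 counts in each line and was not tested. Of the 2 products of MIR1306, 0 passed in edgeR, by an unadjusted p or in DESeq2. The level of miR-1306-5p (chr22:20086072-20086093) was 8.38 ± 1.48 CPM in parental and 6.40 ± 0.82 CPM in HCT116oxR libraries (-0.39 ± 0.18, adjusted p = 0.0989). For miR-1306-3p (chr22:20086112-20086129) it was 4.33 ± 0.62 and 4.03 ± 1.38 CPM (adjusted p = 0.795).

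Of 11 miRNAs reported to target DICER1, 4 fell and 2 rose, where 21.2% of all 975 tested miRNAs fell and 23.5% rose. The most abundant, let-7i-5p (chr12:62603691-62603712), stood at 48500, 48600 and 46800 CPM in parental and 20200, 21800 and 23800 CPM in HCT116oxR libraries. It fell 2.19-fold (-1.13 ± 0.06, adjusted p = 1.45e-08), with no overlap of the lines. The levels of let-7f-5p were 21300, 21000 and 20300 against 13300, 13700 and 14800 CPM, a fall by 0.58 ± 0.05 on the log2 scale (adjusted p = 1.35e-06). Together the list held 10.7% to 11.2% of the small RNA counts in parental and 7.55% to 7.98% in HCT116oxR libraries.

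Other let-7 members moved less or in the other direction. The level of let-7e-5p (chr19:51692793-51692814) rose from 614 ± 14.4 to 830.0 ± 6.07 CPM (0.44 ± 0.05, adjusted p = 1.69e-05). For let-7d-5p (chr9:94178841-94178862) the value was -0.20 ± 0.06 (adjusted p = 0.0123), lost in 6 of 11 alternatives. For let-7a-5p it was -0.11 ± 0.04 (adjusted p = 0.0492), lost in 9 of 11. With the other seed, miR-103a-3p rose from 3521 ± 64.1 to 4154 ± 341 CPM (0.24 ± 0.06, adjusted p = 0.00513), a call lost with upper quartile scaling (0.14). The near-identical miR-107, which differs at 1 of 23 bases, (chr10:89592756-89592778) stood at 0.15 ± 0.06 (adjusted p = 0.0634).

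**Figure D5:**
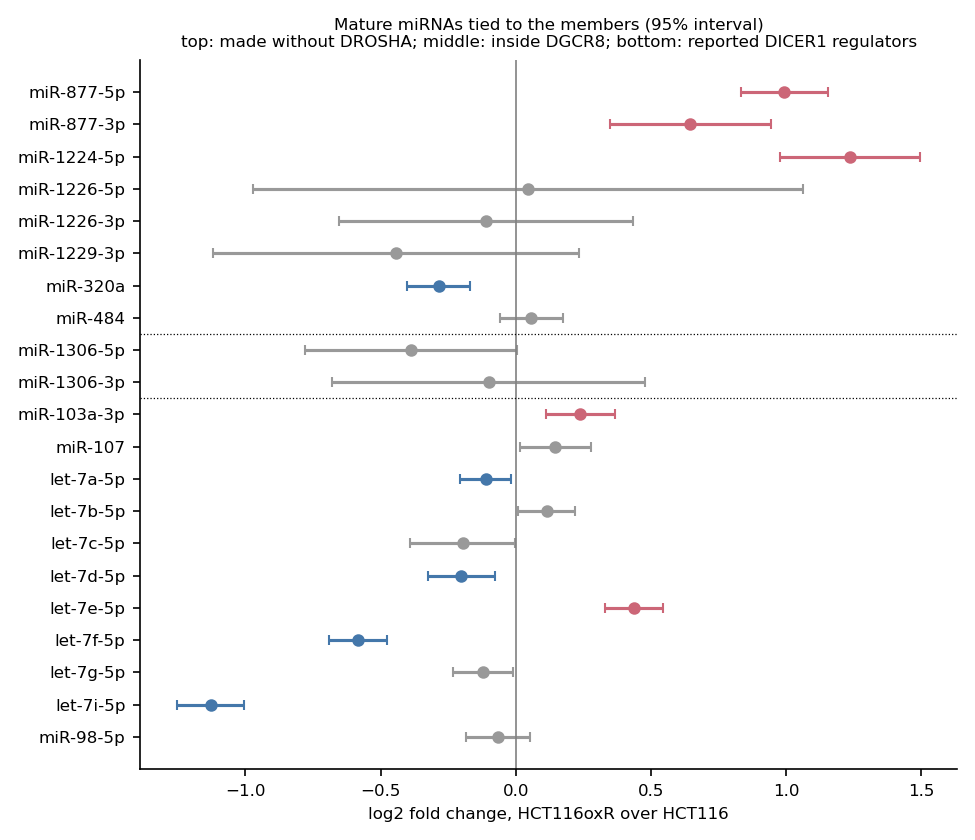
Log2 fold change with 95% interval (horizontal axis) of the 21 tested miRNAs tied to DROSHA, DGCR8 or DICER1, red higher, blue lower and grey not past the threshold. The products miR-877-5p and miR-1224-5p lie highest at 0.99 and 1.24, and let-7i-5p lies lowest at -1.13.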

How the data were processed

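The libraries comprised 3 of total RNA and 3 of small RNA for each of HCT116 and HCT116oxR, from RNA of an integrity number above 8.0 per the labels. The values deposited by the authors are raw counts for 54261 genes and 2588 mature miRNAs. Per the submitters' processing notes, HISAT2 (total RNA), BWA (small RNA) and GRCh38 were used. Tool versions, the counter, its annotation, strand setting and treatment of multiply matching reads: not given in the sources used here.

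The test was edgeR 4.0.16 in R 4.3.3: filterByExpr (10 counts, 15 in all), TMM factors and the robust quasi-likelihood F test, 2-sided, Benjamini-Hochberg adjusted over all 17511 genes or 975 miRNAs. Each SE was derived from the log2 fold change and its F statistic. The procedure was tested on simulated data. Alternatives were DESeq2 1.42.0, other scalings, no filter, a replicate block and leaving out each library. Positions came from RefSeq (GRCh38.p14), matched for 51469 genes.

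All members were named. From each other list up to 2 called genes of highest and 2 of lowest fold change were named, and for a called member its 2 nearest called neighbours. For the called members of highest and lowest fold change, the 3 genes most correlated over libraries were named. The members and lists were chosen with earlier results of these data known. No libraries were alike within sampling noise (chi-square per degree of freedom at least 2.21 in total and 5.40 in small RNA). The limit for 0 counts covers counting error only.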

Additional observations from a re-analysis of the deposited data

How the results depend on the processing

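The number of members called was 6 with DESeq2, library totals, upper quartile scaling and the replicate block, 5 without the filter, and 5 to 6 when each library was left out, the difference in each case being AGO3. Under the replicate block 7565 genes, 46 other pathway genes and 405 miRNAs were called, beside 7721, 48 and 436 without it. Same-numbered libraries deviated together little (r from -0.03 to -0.0035 in total and -0.13 to 0.08 in small RNA), so the numbers do not pair them and the replicate block has no design behind it. Across all alternatives AGO2 ranged from 0.61 to 0.65, AGO4 from 0.55 to 0.61, AGO1 from 0.13 to 0.20, DICER1 from 0.11 to 0.17 and XPO5 from -0.26 to -0.17 (log2), each past the threshold throughout. With genes within 5 Mb in place of 2 Mb, the neighbour median moved to 0.45 for AGO2, -0.0028 for XPO5 and 0.0038 for TNRC6A. DGCR8 ranged from -0.20 to 0.10 when single libraries were left out, positive without HCT116oxR replicate 2, and changed sign with the hairpin rows added (0.15), never past the threshold.

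Among miRNAs that did not pass, signs changed with upper quartile scaling for miR-1226-5p (-0.058) and miR-484 (-0.036). With single libraries left out, miR-1226-5p ranged from -0.37 to 0.48, negative without parental replicate 1, HCT116oxR replicate 2 (-0.10) or replicate 3 (-0.03). In the same way miR-1226-3p ranged from -0.32 to 0.14, positive without parental replicate 1 or HCT116oxR replicate 1 (0.04), and miR-1306-3p from -0.25 to 0.17, positive without HCT116oxR replicate 3. Upper quartile scaling gave 191 miRNAs higher and 258 lower. The cause was not tested. Among named genes 273 of the alternative values kept their side of the threshold and direction, 12 lost the call and 2 changed sign. Among miRNAs 197 did so, 16 lost the call, 8 changed sign and 10 gained a call: miR-107, let-7b-5p and let-7g-5p under 2 alternatives each, let-7c-5p under 3 and miR-1306-5p under 1. The AGO2 share was not recomputed per kilobase, since the gene table gives spans with introns and no transcript length. Few counts limit what could be detected for DGCR8, TNRC6B and LIN28A.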
